A study of Rattus norvegicus with 16 samples.

Results

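The 10 genes described here are claudins of the kidney tubule: Cldn14, Cldn16, Cldn19, Cldn10, Cldn2, Cldn1, Cldn3, Cldn4, Cldn7 and Cldn8. They were taken by name from the 15284 genes that the array's probes could be matched to, and all 10 were found, with 20 probes between them. All 20 probes were well above background on all 16 arrays, so all 10 genes passed the filter on dim probes and were among the 11849 genes tested. The arrays measured total RNA of the renal outer medulla of male Crl:CD Sprague-Dawley rats that were 5 weeks old when dosing began. Treated rats received 2-amino-4-nitrophenol (ANP), a nitroaromatic dye component that injures the kidney tubule, by gavage at 750 mg/kg/day in corn oil, and vehicle rats received corn oil alone. On days 1 and 7 the RNA of 3 animals per group was pooled on 1 array, and on days 14 and 28 each group had 3 arrays of 1 animal each. The vehicle and treated groups therefore shared strain, sex, age, corn oil and gavage, and differed in the compound.

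Claudins are membrane proteins that seal the space between neighbouring epithelial cells and decide which ions may pass there. Along the nephron each segment carries its own set. Cldn2 forms cation and water pores in the proximal tubule and the start of the thin limb. Cldn16 and Cldn19 together form the cation pathway by which the thick ascending limb takes up calcium and magnesium, and Cldn14, which the calcium-sensing receptor Casr controls, closes that pathway. Cldn10 serves sodium passage in the same limb, Cldn3, Cldn4, Cldn7 and Cldn8 line the distal nephron and collecting duct, and Cldn1 is best known in the kidney from the parietal cells of the glomerular capsule.

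Expression is given as a log2 level, the log2 of a spot's processed signal minus the 75th percentile of that array, so that 0 is the 75th percentile. A log2 ratio is the difference of 2 such levels. Levels of different genes come from different probes and are not compared. The 75th percentile lay between 809.7 and 1324 signal units over the arrays, and between 64.75% and 69.6% of probes were well above background. Replicates of one group correlated at r of 0.987 to 0.993 across genes, and no pair was identical. Each array's level of Umod, the marker of the thick ascending limb, lay between 8.61 and 9.49. The slides, told apart by the names of the scanner outputs, followed the groups in part. Slide 1 held the 3 vehicle arrays of day 14 and treated replicate 1 of that day, slide 2 held treated replicates 2 and 3 of day 14 and the 3 vehicle arrays of day 28, slide 3 held the 3 treated arrays of day 28, and slide 4 held the pools.

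Of the 10 claudins, Cldn14 alone passed the test with ANP, on day 28, a share near that of all genes. It was 6.65-fold higher in treated than in vehicle outer medulla of that day (limma adjusted p 0.0345, n = 3 arrays a group), in a comparison that called 7.11% of the 11849 genes, 4.47% higher. The call was lost when any of 5 of the 6 arrays was left out (adjusted p up to 0.102) and in 3 of 11 other settings. Slide and treatment cannot be told apart on that day. With slide as a random block Cldn1 passed as well, lower with ANP by its brightest probe (limma adjusted p 0.0357). Its other 2 probes gave log2 ratios of -0.0463 and -0.0425 on day 28 without that block. On day 14 none of the 10 passed the test, which called 0.481% of genes. The day 28 difference lay beside a low vehicle level: Cldn14 was also 8.06-fold lower in vehicle rats of day 28 than in vehicle rats of day 14. In that comparison of vehicle groups, which called 11.2% of genes, 4.17% lower and 7.01% higher, Cldn19 and Cldn3 were lower as well and Cldn1 was higher. In the pools of days 1 and 7 none of the 10 reached a 2-fold difference, where 9.79% and 4.65% of all genes measured did.

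The promoters of Cldn14 and Cldn16 are shown because the first is the gene that passed with ANP and the second is its partner in the thick ascending limb, which did not pass with ANP. Both are the 250 bases before the start site in the RefSeq table of the GRCr8 assembly, written 5′ to 3′ on the gene's strand. Capitals mark matches, on either strand, to GGAAA, the core bound by NFAT factors, or to TGACNNNGC, the core of the antioxidant response element, and no 2 of these matches overlapped. The Cldn14 window is chr11:46711739-46711988 and the Cldn16 window is chr11:87814397-87814646, both on the minus strand. The Cldn14 window precedes a start site that lies inside the annotated span of the gene, so other starts may lie further upstream.
Cldn14: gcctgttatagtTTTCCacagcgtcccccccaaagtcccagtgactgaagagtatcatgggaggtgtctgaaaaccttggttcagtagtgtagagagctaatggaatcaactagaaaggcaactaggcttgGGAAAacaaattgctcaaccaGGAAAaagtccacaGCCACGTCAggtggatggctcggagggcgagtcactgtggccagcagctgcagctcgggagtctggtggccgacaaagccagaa
Cldn16: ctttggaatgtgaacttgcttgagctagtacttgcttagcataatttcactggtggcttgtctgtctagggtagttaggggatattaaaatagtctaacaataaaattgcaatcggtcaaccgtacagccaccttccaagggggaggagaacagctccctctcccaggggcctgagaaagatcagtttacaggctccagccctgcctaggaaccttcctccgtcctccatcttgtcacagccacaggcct
In the Cldn14 window GGAAA occurred 3 times, at positions -238 to -234 on the opposite strand and at -119 to -115 and -98 to -94 on the gene's own strand, counted from the start site. TGACNNNGC occurred at -84 to -76 on the opposite strand. Of 33469 promoter windows of the same length, 56.9% held GGAAA at least once, 7.14% held it 3 or more times, and 10.1% held TGACNNNGC. The other letters searched, on both strands, were TGANTCA for AP-1, held by 6.34% of windows, and TGATGNAA for ATF4, held by 3.4%. Of the 10 genes, 8 were matched in the promoter table. The Cldn19 window, of a gene not called with ANP, also held GGAAA 3 times, and the windows of the other 6, Cldn16 among them, held none of these 4, which says only that those letters were not in the windows.

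Cldn14, the inhibitor of the calcium and magnesium pathway, was the most variable of the 10 across the arrays of days 14 and 28. In the vehicle group of day 14 its log2 levels were -0.56, -0.26 and 1.41, and in the treated group of that day they were -1.31, -1.0 and -0.41. In the vehicle group of day 28 they were -2.19, -4.21 and -2.04, and in the treated group of day 28 they were 0.22, -0.83 and 0.37. The 3 vehicle arrays of day 28 lay below every other array of the series, and vehicle replicate 2 lay furthest down. The pools gave 0.12 in vehicle and -0.53 in treated RNA on day 1, and 0.12 and 0.14 on day 7, within the span of the other arrays.

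In order of the group means, Cldn14 stood at 0.20 ± 1.06 in vehicle rats of day 14, -0.082 ± 0.65 in treated rats of day 28, -0.91 ± 0.46 in treated rats of day 14 and -2.82 ± 1.21 in vehicle rats of day 28 (log2 level, mean ± SD, n = 3 each). The first 3 groups overlapped one another, while the last lay apart from all of them. On day 28 the log2 ratio of treated to vehicle was 2.73 ± 0.65 (SE; 95% interval 1.30 to 4.17), with a limma adjusted p of 0.0345, and the groups did not overlap. On day 14 the log2 ratio was -1.10 ± 0.65 (limma adjusted p 0.514) and the groups overlapped. Without vehicle replicate 3, the highest array of that day, it was -0.50 (adjusted p 0.778). The log2 ratios of the 2 days lay 3.84 ± 0.92 apart, a difference that did not pass the test (unadjusted limma p 0.00173, adjusted p 0.378). No gene passed the adjusted test of the difference (0% of genes called), while 9.27% had an unadjusted p under 0.05.

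**Figure D1:**
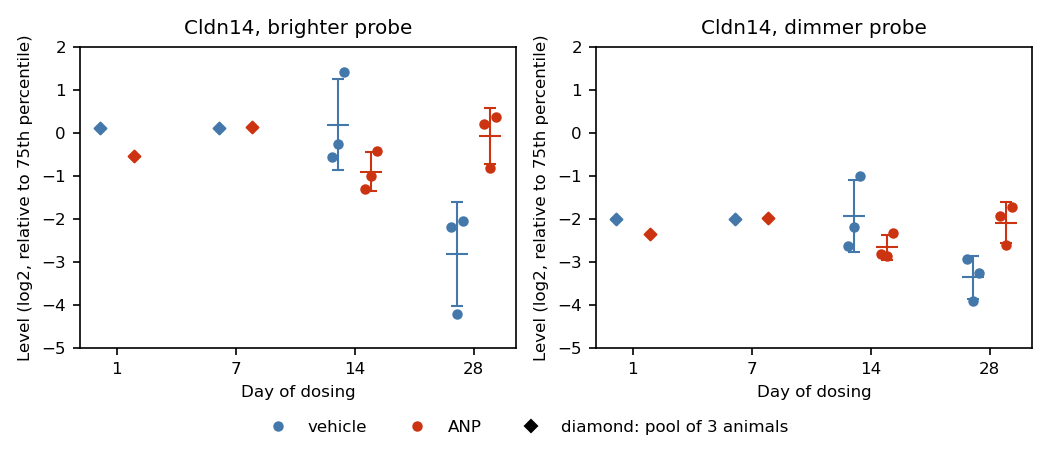
Log2 level of Cldn14 relative to the array's 75th percentile (vertical axis) by day of dosing (horizontal axis), for the brighter probe, used in the tests, and the dimmer probe. Points are arrays of single animals, diamonds are pools of 3 animals, and bars are the mean ± SD of 3 arrays. The vehicle arrays of day 28, at -2.19, -4.21 and -2.04 for the brighter probe, are the lowest of each panel.

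Vehicle rats of day 28 had lower Cldn14 than vehicle rats of day 14, by a log2 ratio of -3.01 ± 0.65 (limma adjusted p 0.0175), and the groups did not overlap. This comparison shares the vehicle arrays of day 28 with the ANP comparison of that day, so the 2 values are not independent of each other. The dimmer Cldn14 probe read -2.93, -3.91 and -3.26 in vehicle and -1.94, -2.62 and -1.72 in treated arrays of day 28. These groups did not overlap either, at a log2 ratio of 1.28 (limma adjusted p 0.0854). The dimmer probe gave -1.43 between the vehicle groups (limma adjusted p 0.0501). Both probes therefore ran the same way, and the dimmer one missed the threshold in both comparisons.

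The day 28 call of Cldn14 was lost when any of 5 of the 6 compared arrays was left out. The limma adjusted p was then 0.0677 without vehicle replicate 1 (log2 ratio 3.04), 0.102 without vehicle replicate 2 (2.04), 0.0909 without treated replicate 1 (2.58), 0.0548 without treated replicate 2 (3.11) and 0.0716 without treated replicate 3 (2.51). Without vehicle replicate 3 it was 0.0445. The call was also lost with only the day 28 groups in the fit (adjusted p 0.0669) or with no filter on dim probes (0.0506). With slide as a random block the log2 ratio was 2.70 (limma adjusted p 0.0132), but the estimated correlation within slides was -0.0891 and each day 28 group lay on 1 slide, so this fit does not separate slide from treatment. On slide 2, which held arrays of both kinds from different days, treated replicates 2 and 3 of day 14 read -1.0 and -0.41 and the vehicle arrays of day 28 read -4.21 to -2.04. Day and treatment cannot be told apart within that slide.

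Cldn16 and Cldn19, which together form the cation pathway that Cldn14 closes, had higher means in treated rats on both days without passing the test. Cldn16 read 0.85, 0.75 and 1.16 in vehicle and 1.02, 1.31 and 1.20 in treated arrays of day 14, and 0.06, 0.17 and 0.72 in vehicle and 0.69, 0.92 and 0.54 in treated arrays of day 28. The groups overlapped on both days, at log2 ratios of 0.26 ± 0.18 (limma adjusted p 0.593) and 0.40 ± 0.18 (adjusted p 0.191). The day 28 interval, -0.0017 to 0.80, leaves room for a 1.74-fold increase.

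Cldn19 read 4.05, 3.98 and 4.69 in vehicle and 4.35, 4.90 and 4.58 in treated arrays of day 14, which overlapped. On day 28 it read 3.27, 3.20 and 3.74 in vehicle and 3.89, 3.90 and 4.08 in treated arrays, and every treated array lay above every vehicle array. The log2 ratio was 0.37 ± 0.21 on day 14 (limma adjusted p 0.495) and 0.55 ± 0.21 on day 28 (adjusted p 0.133). Its other 2 probes gave 0.62 and 0.63 on day 28, close to the first. Cldn19 was lower in vehicle rats of day 28 than of day 14 by a log2 ratio of -0.84 ± 0.21 (limma adjusted p 0.0323). Cldn16 gave -0.60 ± 0.18 there (adjusted p 0.0594), with groups that did not overlap.

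The Cldn19 call between the vehicle groups was lost without vehicle replicate 3 of day 14 (limma adjusted p 0.0977, log2 ratio -0.61), vehicle replicate 1 of day 28 (0.111, -0.77) or vehicle replicate 2 of day 28 (0.12, -0.74). The vehicle call of Cldn14 was lost without vehicle replicate 3 of day 14 (0.0591, -2.40) or vehicle replicate 2 of day 28 (0.0561, -2.31). Casr, the receptor upstream of Cldn14, lay between 3.84 and 4.80 on all 16 arrays. Its log2 ratio was 0.17 ± 0.22 on day 14 and 0.16 ± 0.22 on day 28 (limma adjusted p 0.814 and 0.696).

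Cldn10 and Cldn2 are the pore-forming claudins for sodium and for cations with water. Cldn10 read 3.10, 3.23 and 3.59 in vehicle and 3.38, 3.73 and 3.73 in treated arrays of day 14, and 2.79, 2.93 and 3.27 in vehicle and 3.52, 3.33 and 3.31 in treated arrays of day 28. The day 28 groups did not overlap, by a small gap, at a log2 ratio of 0.39 ± 0.16 (limma adjusted p 0.16). On day 14 they overlapped, at 0.31 ± 0.16 (adjusted p 0.455). This gene has 1 probe, and which splice forms of Cldn10 it reads was not tested.

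Cldn2 had the smallest spread of the 10. It read 3.23, 3.01 and 3.18 in vehicle and 2.95, 3.08 and 3.11 in treated arrays of day 14, and 3.27, 3.32 and 3.36 in vehicle and 3.25, 3.12 and 3.00 in treated arrays of day 28. On day 28 each treated array lay below each vehicle array, with a log2 ratio of -0.19 ± 0.092 (limma adjusted p 0.206). As a ratio of treated to vehicle signal, its 95% interval was 0.76 to 1.01. On day 14 the log2 ratio was -0.093 ± 0.092 (adjusted p 0.731).

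**Figure D2:**
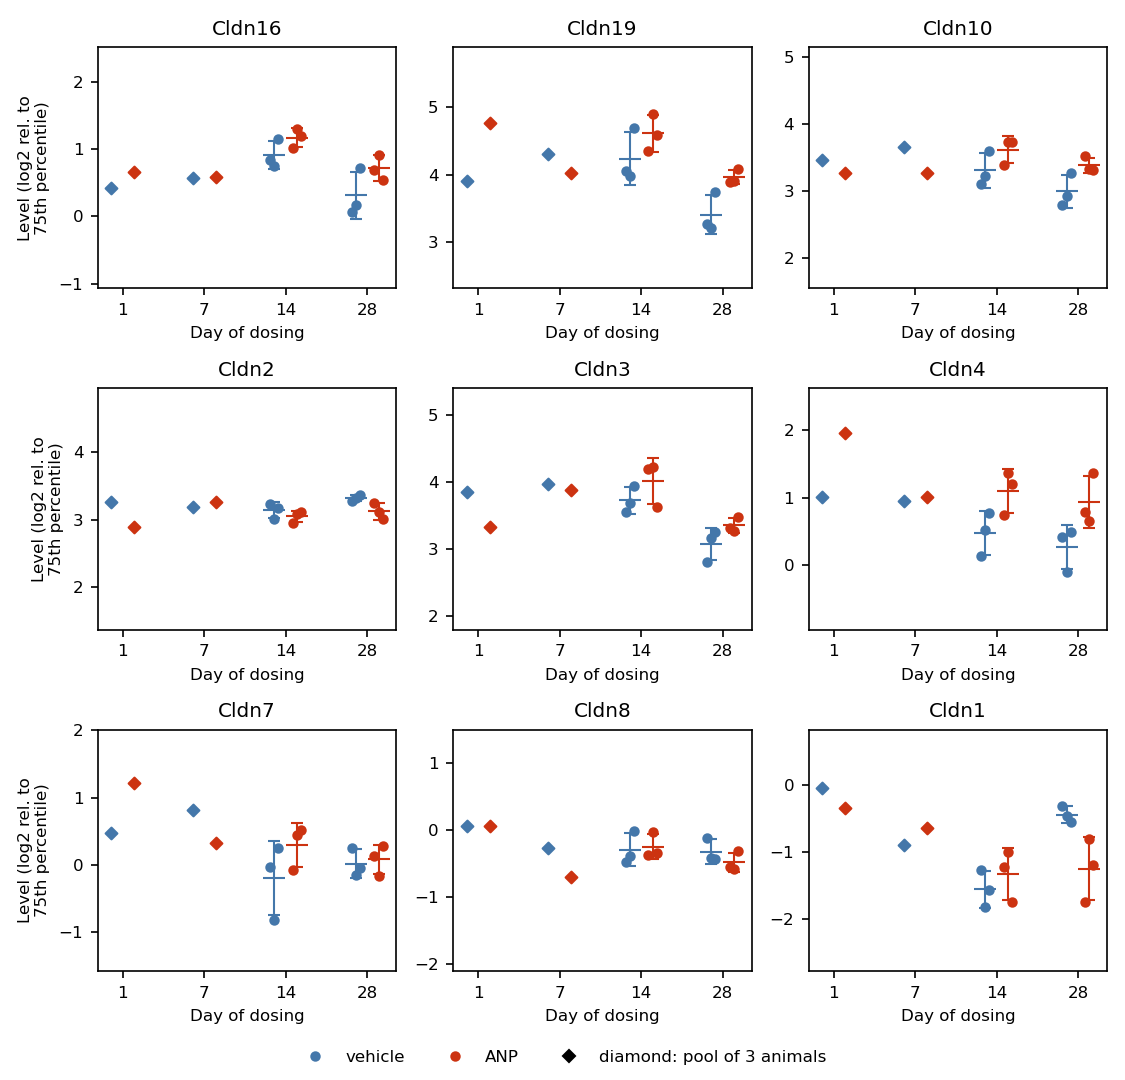
Log2 levels of the other 9 claudins relative to the array's 75th percentile (vertical axes, each panel spanning the same number of log2 units) by day of dosing (horizontal axes). Points are arrays of single animals, diamonds are pools of 3 animals, and bars are the mean ± SD of 3 arrays. Cldn2 stays between 2.88 and 3.36 on all arrays, Cldn19 and Cldn3 are lowest in vehicle rats of day 28, and Cldn1 is highest there among the arrays of single animals.

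Cldn3, a sealing claudin of the distal nephron, read 3.54, 3.69 and 3.94 in vehicle and 4.19, 4.21 and 3.62 in treated arrays of day 14, which overlapped. On day 28 it read 2.80, 3.17 and 3.24 in vehicle and 3.31, 3.27 and 3.47 in treated arrays. The treated arrays of day 28 lay just above the vehicle arrays, at a log2 ratio of 0.28 ± 0.18 (limma adjusted p 0.349), and the day 14 ratio was 0.29 ± 0.18 (adjusted p 0.539). Cldn3 was lower in vehicle rats of day 28 than of day 14 by a log2 ratio of -0.65 ± 0.18 (limma adjusted p 0.0421). That call was lost without vehicle replicate 2 or 3 of day 14 or vehicle replicate 1 or 2 of day 28, with adjusted p from 0.0924 to 0.149 and log2 ratios from -0.70 to -0.52.

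Cldn4, which pairs with Cldn8 in the chloride pathway of the collecting duct, had treated means above vehicle on both days. It read 0.13, 0.52 and 0.78 in vehicle and 0.73, 1.37 and 1.20 in treated arrays of day 14, with 1 treated array inside the vehicle range. It read 0.41, -0.11 and 0.49 in vehicle and 0.78, 0.65 and 1.37 in treated arrays of day 28, and these groups did not overlap. The log2 ratios, 0.63 ± 0.25 on day 14 and 0.67 ± 0.25 on day 28, missed the threshold (limma adjusted p 0.317 and 0.129). In the day 1 pools, which have no test, Cldn4 stood at 1.00 in vehicle and 1.96 in treated RNA, a log2 ratio of 0.95 and the largest of the 10 on that day.

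Cldn7, a claudin of the distal nephron that is also found along the basolateral side of cells, read -0.04, -0.82 and 0.24 in vehicle and -0.08, 0.43 and 0.52 in treated arrays of day 14. On day 28 it read 0.25, -0.16 and -0.04 in vehicle and 0.12, -0.16 and 0.27 in treated arrays. The groups overlapped on both days, at log2 ratios of 0.49 ± 0.26 (limma adjusted p 0.454) and 0.061 ± 0.26 (adjusted p 0.908). Cldn8, the partner of Cldn4, read -0.48, -0.38 and -0.01 in vehicle and -0.38, -0.03 and -0.33 in treated arrays of day 14. On day 28 it read -0.11, -0.42 and -0.43 in vehicle and -0.55, -0.57 and -0.31 in treated arrays. It overlapped on both days as well, at 0.044 ± 0.15 (limma adjusted p 0.939) and -0.16 ± 0.15 (adjusted p 0.541). As ratios of treated to vehicle signal, the 95% intervals of Cldn8 were 0.82 to 1.30 and 0.71 to 1.13.

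Cldn1, the claudin of the parietal cells of the glomerular capsule, was read differently by its 3 probes. The brightest read -1.27, -1.82 and -1.56 in vehicle and -1.22, -0.99 and -1.75 in treated arrays of day 14, and -0.30, -0.46 and -0.55 in vehicle and -1.74, -0.80 and -1.19 in treated arrays of day 28. By this probe the treated arrays of day 28 lay below the vehicle arrays, at a log2 ratio of -0.81 ± 0.25 (limma adjusted p 0.0796, or 0.0357 with slide as a random block), while the day 14 ratio was 0.23 ± 0.25 (adjusted p 0.766) with overlapping groups. The other 2 probes gave -0.046 and -0.042 on day 28 (limma adjusted p 0.931 and 0.944), with overlapping groups. The difference between the days' effects was -1.03 ± 0.36 by the brightest probe (unadjusted limma p 0.015, adjusted p 0.464).

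Cldn1 was higher in vehicle rats of day 28 than of day 14 by a log2 ratio of 1.11 ± 0.25 (limma adjusted p 0.0206). The dimmest probe gave 1.18 there (adjusted p 0.017) and the middle one 0.62 (adjusted p 0.194). The call of the brightest probe was lost without vehicle replicate 2 or 3 of day 14 or vehicle replicate 1 or 2 of day 28, with adjusted p from 0.0658 to 0.0766 and log2 ratios from 0.97 to 1.12. The probes also parted in the pools: on day 1 the brightest gave a log2 ratio of -0.30 and the middle one 0.34, and on day 7 they gave 0.26 and 0.98.

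**Figure D3:**
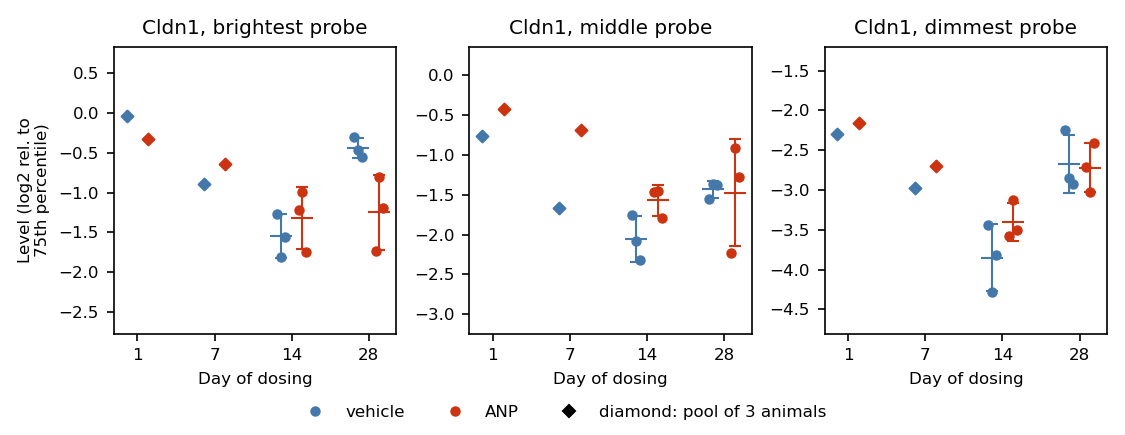
Log2 level of Cldn1 relative to the array's 75th percentile (vertical axes) by day of dosing (horizontal axes) for its 3 probes. Points are arrays of single animals, diamonds are pools of 3 animals, and bars are the mean ± SD of 3 arrays. All 3 probes are lower in vehicle rats of day 14 than of day 28, and the brightest alone separates treated from vehicle rats on day 28.

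Across the 10 claudins, 8 had a log2 ratio above 0 on day 14, with a median of 0.27, where 52.4% of all genes did and their median was 0.011. On day 28 the count was 7, with a median of 0.33, against 53.4% of all genes and a median of 0.023. In vehicle rats of day 28 against those of day 14 the median of the 10 was -0.26 against 0.0058 for all genes. Of the 10, 1 was called higher and 3 lower, beside 7.01% and 4.17% of all genes. With slide as a fixed block these 4 lost their calls between the vehicle groups, at -3.61 for Cldn14, -1.23 for Cldn19, 1.26 for Cldn1 and -0.38 for Cldn3 (limma adjusted p 0.227, 0.193, 0.277 and 0.67). At an unadjusted p under 0.05, 1 of the 10 (Cldn4) passed on day 14, where 13.4% of all genes did, and 5 of the 10 passed on day 28, where 26.3% did. The groups of day 28 did not overlap for Cldn14, Cldn19, Cldn10, Cldn3 and Cldn4, all higher in treated arrays, and for Cldn2 and Cldn1, both lower. Of all genes 32.8% did not overlap on that day, and on day 14 none of the 10 and 18.1% of all genes did not. The vehicle groups did not overlap for Cldn14, Cldn16, Cldn19 and Cldn3, lower on day 28, and for Cldn2 and Cldn1, higher, beside 34.7% of all genes. Each ANP comparison shares its vehicle arrays with the comparison of the vehicle groups.

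**Figure D4:**
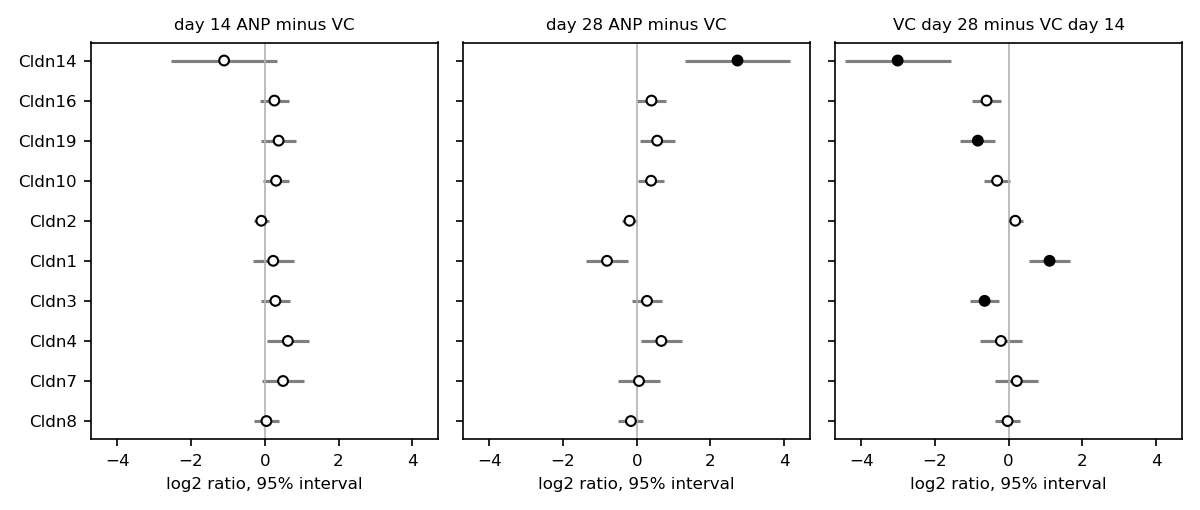
Log2 ratios (horizontal axes) of the 10 claudins (vertical axis) for treated against vehicle rats (VC) on day 14 and on day 28 and for vehicle rats of day 28 against vehicle rats of day 14. Points are limma estimates from 3 arrays a group, lines are 95% intervals, and filled points passed an adjusted p of 0.05. Cldn14 is the one filled point on day 28, at 2.73, and the vehicle panel has 4.

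In the pools, with 1 array a group, the day 1 log2 ratios of the 10 ran from -0.66 for Cldn14 to 0.95 for Cldn4, with Cldn19 at 0.85 and Cldn7 at 0.76. The day 7 ratios ran from -0.49 for Cldn7 to 0.26 for Cldn1. The injury marker Havcr1, made by damaged proximal tubule, differed by a log2 ratio of 9.63 between the day 1 pools and of 4.23 between the day 7 pools. Its log2 ratio was 2.10 ± 0.54 on day 14 (limma adjusted p 0.135) and -0.030 ± 0.54 on day 28 (adjusted p 0.98). Of 10 injury markers tested, 9 had a log2 ratio above 0 on day 14, with a median of 0.59. Of these 10, 1, Gpnmb, was called higher at 1.55 ± 0.26 (limma adjusted p 0.0358), beside 0.481% of all genes called in either direction. On day 28 5 of the 10 lay above 0, with a median of 0.010, and none was called, beside 7.11% of all genes. The part of tubular injury in the claudin values was not tested.

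Markers of cortical segments differed between the vehicle groups, and the median log2 ratio of each list was below 0 with ANP on day 28. In these whole-tissue samples a different share of cortex in the sample, a smaller number of cells of one type and less RNA per cell cannot be told apart. The summed level of all 16 listed markers of the convoluted proximal tubule, on a linear scale with the 75th percentile at 1, was 446 to 894 in vehicle and 462 to 619 in treated rats of day 14, and 1164 to 1370 in vehicle and 867 to 1064 in treated rats of day 28. That of 4 of 7 markers of the distal convoluted tubule was 1.99 to 5.55, 1.93 to 2.60, 13.2 to 15.3 and 4.71 to 6.27 in the same order. That of 10 of 11 podocyte and glomerular markers, leaving out Cldn1, was 15.2 to 17.1, 12.3 to 14.8, 28.1 to 36.4 and 17.5 to 18.8. All 3 lists were highest in the vehicle rats of day 28, the arrays with the lowest Cldn14, Cldn19 and Cldn3 of all and, among the arrays of single animals, the highest Cldn1 by its brightest probe. In vehicle rats of day 28 against those of day 14, 11 of 16, 4 of 4 and 6 of 10 of these markers were called higher and none lower, beside 7.01% and 4.17% of all genes, with median log2 ratios of 1.60, 2.06 and 1.22. Slc5a2, the glucose transporter of the early proximal tubule, gave 2.35 ± 0.43 (limma adjusted p 0.00929). With ANP on day 28, 3 of 16, 1 of 4 and 3 of 10 of these markers were called lower. The 1 of 4 was Slc8a1 and the 3 of 10 included Magi2, and these same calls are given again below with other lists. Both genes were also among the markers called higher between the vehicle groups, where Magi2 was not well above background on any array of day 14. Of the convoluted proximal tubule markers 1 of 16 was called higher, and none of the other lists. Beside this, 7.11% of all genes were called in either direction. The median log2 ratios with ANP were -0.74, -1.33 and -0.85. No marker of these lists was listed at 0, and the part of these markers in the claudin results was not tested. Of 16 straight proximal tubule markers, 2 were called higher and 1 lower between the vehicle groups, with a median log2 ratio of -0.18. With ANP on day 28, 2 of those 16 were called higher and 0 lower, with a median of 0.034. All genes were called at 11.2% and 7.11% in these comparisons, in either direction.

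Of 16 markers of the thick ascending limb, the segment that carries Cldn14, Cldn16 and Cldn19, 2 were called higher (Kcnj16 and Wnk1) and 3 lower (Irx1, Irx2 and Pou3f3) between the vehicle groups, where 11.2% of all genes were called. With ANP none was called on day 14, beside 0.481% of all genes. On day 28 1 of 16 was called higher with ANP (Pou3f3) and 1 lower, beside 7.11% of all genes called in either direction. The genes named here are given with their values already known. The summed level of these 16 of 22 listed markers, without the claudins, was 855 to 874 in vehicle and 824 to 915 in treated rats of day 14, and 817 to 902 in vehicle and 860 to 945 in treated rats of day 28. Those 4 ranges overlapped, but Umod alone made up 67.1% to 76.4% of each sum. The sum of the other 15 was 245 to 251 in vehicle and 245 to 269 in treated rats of day 14, and 259 to 280 in vehicle and 222 to 248 in treated rats of day 28, where the groups did not overlap. The list's median log2 ratio was 0.051 on day 14, 0.17 on day 28 and -0.23 between the vehicle groups. Umod gave 0.21 ± 0.088 on day 28 and -0.078 ± 0.088 between the vehicle groups (limma adjusted p 0.166 and 0.627), and the potassium channel Kcnj1 0.33 ± 0.18 and -0.52 ± 0.18 (adjusted p 0.256 and 0.085). Aqp2, the water channel of the collecting duct, gave -0.22 ± 0.32 on day 28 (limma adjusted p 0.697). The summed level of 19 collecting duct markers, without Cldn4 and Cldn8, was 220 to 240 in vehicle and 131 to 226 in treated rats of day 28. On that day 4 of these 19 were called lower with ANP and 0 higher, beside 7.11% of all genes called in either direction. Their median log2 ratio was -0.25, and 4 of 19 lay above 0. Between the vehicle groups 4 were called higher and 0 lower, beside 11.2% of all genes.

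**Figure D5:**
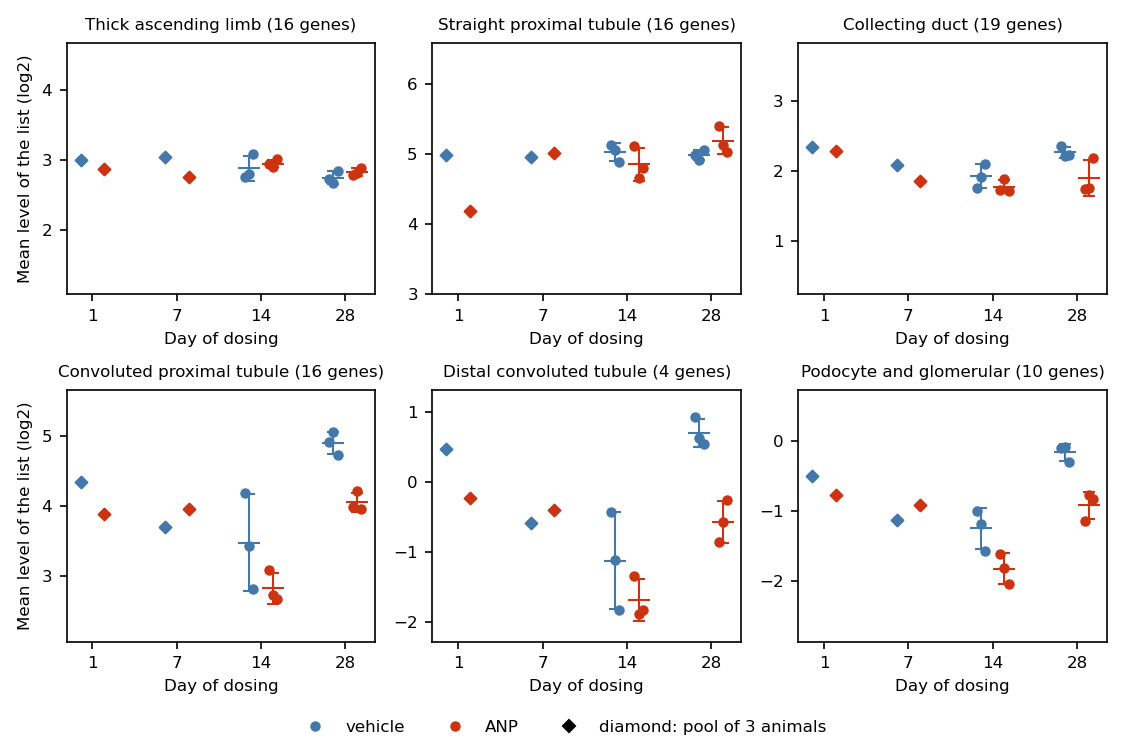
Mean log2 level, relative to the array's 75th percentile, of 6 lists of segment markers (vertical axes, each panel spanning the same number of log2 units) by day of dosing (horizontal axes), with the 10 claudins left out of the lists. Points are arrays of single animals, diamonds are pools of 3 animals, and bars are the mean ± SD of 3 arrays. The 3 cortical lists in the lower row are highest in vehicle rats of day 28, while the thick ascending limb list stays between 2.67 and 3.09.

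Of 20 further claudins and claudin domain genes, 17 had a named probe and 12 were tested. None was called with ANP on day 14 or day 28, beside 0.481% and 7.11% of all genes. Their median log2 ratios were 0.041 and 0.084. At an unadjusted limma p under 0.05, 4 of these 12 passed on day 14, beside 13.4% of all genes, and 3 on day 28, beside 26.3%. Cldn5, the claudin of endothelium, gave -0.36 ± 0.18 on day 28 (limma adjusted p 0.239). Between the vehicle groups 2 were called higher and 1 lower, beside 7.01% and 4.17% of all genes, and these are named with their values already known. Cldn22 and Cldn24 were not well above background on any vehicle array of day 14 and were at least 2.48-fold and 2.68-fold higher on day 28 (limma adjusted p 0.00984 and 0.0196), and Cldnd1 was lower by a log2 ratio of -0.38 ± 0.091 (adjusted p 0.025). These bounds set the mean of day 28 against the higher of each dim array's own signal and its lowest signal well above background. The Cldn24 call was lost without 3 of the 6 arrays and the Cldnd1 call without 5. In the day 1 pools Cldn17 and Cldn24 gave log2 ratios of 1.60 and 1.33 at dim levels.

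The tight junction partners of the claudins, from scaffold proteins to the other membrane proteins of the junction, were tested for 25 of 30 listed genes. None was called on day 14, beside 0.481% of all genes, and 4 passed unadjusted, beside 13.4% of all genes. On day 28 3 were called higher and 1 lower, beside 7.11% of all genes called in either direction. Between the vehicle groups Jam3 and Magi2 were called higher and Pard3, Magi3 and Mpdz lower, 5 of 25 beside 11.2% of all genes, and these are named with their values already known. Magi2 was not well above background on any vehicle array of day 14 and was at least 1.83-fold higher on day 28 (limma adjusted p 0.0125). Marveld3, a junction membrane protein of the occludin family, read -1.22, -1.17 and -1.15 in vehicle and -0.10, -0.32 and -0.28 in treated arrays of day 28. Every treated array lay above every vehicle array, at a log2 ratio of 0.95 ± 0.13 (limma adjusted p 0.00673), and the call held without each of the 6 arrays. Ybx3, a DNA-binding protein held at the junction by the scaffold Tjp1, gave 0.71 ± 0.15 (limma adjusted p 0.0232), and the kinase Prkci, part of the polarity complex, gave 0.46 ± 0.12 (adjusted p 0.0456).

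The scaffold Magi2, which is also a podocyte gene, gave -1.34 ± 0.34 (limma adjusted p 0.0441) and was well above background on 5 of the 6 arrays; it is named although the rule for named genes left it out. Leaving out 1 array ended the call of Ybx3 in 3 of 6 fits, with log2 ratios from 0.54 to 0.86, of Prkci in 5 of 6, with 0.34 to 0.54, and of Magi2 in all 6, with -1.52 to -1.01. With the mean of the gene's probes Prkci gave 0.25 (limma adjusted p 0.244). Occludin itself, Ocln, gave 0.46 ± 0.17 on day 28 and -0.57 ± 0.17 between the vehicle groups (limma adjusted p 0.127 and 0.0615). The scaffold Tjp1 gave -0.39 ± 0.12 on day 28 (adjusted p 0.0687). In the day 1 pools Prkci stood at 3.63 in vehicle and 4.92 in treated RNA, a log2 ratio of 1.30.

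The genes of calcium and magnesium handling were tested for 23 of 28 listed. None was called on day 14, beside 0.481% of all genes, and 7 passed unadjusted, beside 13.4% of all genes. On day 28 1 was called higher and 2 lower, beside 7.11% of all genes called in either direction, with a list median of -0.26. Slc41a3, a magnesium carrier, read -2.49, -2.22 and -1.89 in vehicle and -1.21, -1.32 and -1.20 in treated arrays of day 28. The groups lay well apart, at a log2 ratio of 0.96 ± 0.14 (limma adjusted p 0.00826), and the call held without each of the 6 arrays. Like Cldn14 it was lower in the vehicle rats of day 28 than of day 14, by -0.72 ± 0.14 (adjusted p 0.0134).

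Slc8a1, the sodium-calcium exchanger of the distal convoluted tubule, read -1.77, -2.0 and -2.30 in vehicle and -4.61, -3.97 and -3.09 in treated arrays of day 28. It was lower in treated rats by a log2 ratio of -1.86 ± 0.40 (limma adjusted p 0.0257) and higher in vehicle rats of day 28 than of day 14 by 1.76 ± 0.40 (adjusted p 0.021). Kl, the hormone co-receptor klotho of the distal tubule, fell with ANP by 0.93 ± 0.21 (limma adjusted p 0.03) and was higher between the vehicle groups by 1.02 ± 0.21 (adjusted p 0.0152). Leaving out 1 array ended the day 28 call of Slc8a1 in 4 of 6 fits and of Kl in all 6, with adjusted p from 0.0574 to 0.098. Between the vehicle groups 7 of the 23 genes were called higher and 2 lower (Slc41a3 and Egf), beside 7.01% and 4.17% of all genes. In the day 1 pools Stc1, Calb1 and Slc8a1 gave log2 ratios of -1.79, -1.34 and -1.15 and Trpv6, at a dim level, gave 1.69, and in the day 7 pools Cyp24a1, which degrades active vitamin D, gave 1.23.

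The genes whose pattern over the 12 arrays of days 14 and 28 was most like that of Cldn14 were found by the root mean square difference of gene-centred log2 levels. They were Nrn1l at 0.67, Wnt10a at 0.67, Slc2a4 at 0.79, Dkk1 at 0.82 and Liph at 0.85, where the median over all genes was 1.40. Nrn1l, a neuritin relative, read -2.01, -3.23 and -0.51 in vehicle arrays of day 28, and Wnt10a, a Wnt ligand, read -2.93, -3.65 and -2.08. In both, as in Cldn14, vehicle replicate 2 of day 28 was the lowest of the 12 arrays. The treated arrays of that day read -0.58 to 0.07 for Nrn1l and -1.39 to -0.84 for Wnt10a. These genes were chosen for this likeness on the same arrays, so their levels are a description.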

How the data were processed

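Cy3-labelled RNA of 16 outer medulla samples was read on 1-colour rat arrays; the submitters' processing notes name Agilent Feature Extraction 10.7. Per the file headers, the scanner output gives the authors' processed intensity (linear, background already subtracted), the median spot and background intensity, and other marks for outliers and for spots well above background. A second deposited table of values is a ratio, equal to the processed intensity over its array's 75th percentile. Coordinates of the array annotation were not used.

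The log2 of the deposited processed intensity, less the 75th percentile of each array, was computed for 61657 probes without controls. Outlier spots (0 to 9 per array) were dropped and no spot was saturated. RefSeq accessions tied 27460 probes to 15284 genes and left 34197 unnamed (93.9% of NM accessions matched). A gene was read by its brightest probe over the 12 arrays of days 14 and 28, and 11849 genes, with that probe well above background in every array of some group, entered the test. Groups follow the labels; by these, days 14 and 28 have 1 animal per array. The test was limma (version 3.58.1, R 4.3.3; lmFit and eBayes) on those 12 arrays with a mean for each group and Benjamini-Hochberg adjustment over all genes at 0.05, and it was tested on simulated data. Pools have no test. A fold is 2 raised to the size of the log2 ratio. Precision is limited by the number of arrays.

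The 10 claudins and all lists were chosen with earlier results of these data known. Besides the 10, the text names listed genes of the junction or of calcium and magnesium handling that passed on day 14 or 28 above background on all 6 arrays, up to 4 a list past a log2 ratio of 1 in the pools, the 5 genes most like Cldn14 and fixed marker examples; Casr, Cldn5, Ocln and Tjp1 were added as known partners. The alternatives tried were quantile and median scaling, normexp (offset 50) followed by quantile scaling, the deposited table of ratios, no filter or a stricter one on dim probes, other or averaged probes, fewer groups in the fit, slide blocks, a replicate block, and each array left out.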

Additional observations from a re-analysis of the deposited data

Results flagged for a closer look

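The log2 ratio of Cldn14 with ANP had opposite signs on the 2 days, a difference that did not pass the adjusted test. Every treated array of day 14 lay below the mean of its vehicle group, by log2 differences of -1.51, -1.19 and -0.61, and every treated array of day 28 lay above the mean of its vehicle group, by 3.03, 1.99 and 3.18. The difference of the effects was 3.84 on the log2 scale (day 28 minus day 14), with an unadjusted limma p of 0.00173 and an adjusted p of 0.378. The vehicle mean itself was 0.20 on day 14 and -2.82 on day 28. Without vehicle replicate 3 of day 14, at 1.41, the day 14 ratio moved from -1.10 to -0.50 and the difference to 3.23 (limma adjusted p 0.778 and 0.363). Among the other claudin, junction and calcium genes, Cldn5, Cldnd1, Cldnd2, Mpdz, Amotl2 and Cyp24a1 also had all treated arrays on opposite sides on the 2 days. How many of all genes do so was not counted.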

How the results depend on the processing

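Of 575 values of the 10 claudins recomputed under other settings, 526 kept direction and side of the threshold, 32 lost a call, 6 gained one and 11 changed sign. Most of the 575 were not called in the main fit, so they had no call to lose. The Cldn14 call of day 28 was lost in 5 of 6 fits without 1 array and 3 of 11 other settings. Between the vehicle groups these losses were 2 of 6 and 3 of 12 for Cldn14 and 3 of 6 and 2 of 13 for Cldn19. They were 4 of 6 and 2 of 13 for Cldn1 and 4 of 6 and 4 of 12 for Cldn3. The sign changes were in values smaller than their SE in the main fit. Cldn8 on day 14 gave -0.084 with slide as a fixed block and -0.064 to 0.18 with 1 array left out. Cldn7 on day 28 gave -0.036 to 0.18 with 1 array left out. Cldn7 between the vehicle groups, 0.22 ± 0.26 in the main fit, gave -0.34 with slide as a fixed block and -0.086 to 0.45 with 1 array left out. Cldn8 between the vehicle groups gave -0.14 to 0.11 with 1 array left out. The cause was not tested.

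Cldn14 on day 28 lost its call without the filter on dim probes (limma adjusted p 0.0506), with only the compared groups in the fit (0.0669) and by its other probe, and its log2 ratio stayed between 1.28 and 2.79 in the settings that kept all arrays. The count of claudins called on day 28 was thus 0 in the first 2 of these settings and 2 with slide as a random block, where Cldn1 was added at -0.80 (adjusted p 0.0357). Between the vehicle groups it was 1 with only the compared groups and 0 with slide as a fixed block. Cldn16 passed there with normexp, the mean of its probes, its other probe and slide as a random block. Without 1 array, 0 to 1 claudins were called on day 28 and 0 to 5 between the vehicle groups.

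Over all genes, 57 were called on day 14, against 119 with normexp, 28 without the filter, 22 with only the compared groups, 0 with slide as a fixed block, 133 with slide as a random block and 36 with the replicate block. On day 28 842 were called, against 431 with only the compared groups and 1857 with slide as a random block, and between the vehicle groups 1325, against 627, 2202 and 0 with slide as a fixed block. Slide as a fixed block could be fitted for day 14 and the vehicle groups only, where limma gave 709 and 1645 genes an unadjusted p under 0.05. Without 1 array, 1 to 56 genes were called on day 14, 211 to 754 on day 28, 430 to 1596 between the vehicle groups and 0 to 2 for the difference between days, where limma on all 12 arrays called 0 and gave 1098 genes an unadjusted p under 0.05. In the pools 1215 genes passed 2-fold on day 1 and 564 on day 7, against 666 and 192 with normexp.

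Replicate numbers were not treated as pairs, since by the labels they number single animals. The deviations of same-numbered arrays correlated at 0.129, 0.0694 and 0.144 on day 14 and -0.0677, -0.0452 and 0.112 on day 28. With the replicate block Cldn14 kept its day 28 call (log2 ratio 2.73, limma adjusted p 0.0174), and between the vehicle groups 3 claudins were called, Cldn3 dropping to an adjusted p of 0.0625. With 3 arrays a group, small differences such as those of Cldn16 and Cldn4 cannot be settled.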
